A study of Mus musculus with 12 samples.

Results

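The genes described here are 35 mouse genes for glutamate receptors and their auxiliary subunits, of 52636 gene IDs in each deposited count table, measured by bulk RNA sequencing of the dentate gyrus. They were chosen by name and not by their values: 4 AMPA, 7 NMDA and 5 kainate receptor subunits, 1 delta receptor, 7 metabotropic receptors, 6 subunits of the TARP family, 3 other AMPA auxiliary subunits and 2 kainate auxiliary subunits. All 12 libraries are total RNA from C57BL/6 mice, with 3 libraries in each of 4 groups. WT is wild type and KO is the Fst knockout, Fst being the gene for follistatin, a secreted protein that binds activin. The GFP vector group is KO mice given AAV9-CB::GFP, an adeno-associated viral vector carrying a fluorescent protein. The Fst vector group is labelled OE (overexpressing) and given AAV9-CB::Fst, and its genotype is not stated. No age, dose, injection site, target cell type or time after injection is given in the sources used here. Each group has libraries titled M1, M2 and F1 (F in the vector groups), and values below are given in that order. The design text can be read as 1 mouse a library or as pools of 3 mice, and the p-values speak only of how much the deposited libraries spread. WT and KO are in one table and the vector groups in the other, so tests were made within each table. KO against WT asks what loss of Fst does. Fst vector against GFP vector asks what the Fst vector does, together with genotype if that differs between the groups.

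Glutamate is the main excitatory transmitter of the brain. AMPA receptors carry the fast synaptic current, NMDA receptors pass calcium and serve plasticity, and kainate receptors act on both sides of the synapse, including at the mossy fibre terminals of dentate granule cells. Metabotropic receptors are coupled to G proteins: group I excites through phospholipase C, while groups II and III lower cyclic AMP and mostly restrain release. Auxiliary subunits do not bind glutamate. TARPs and cornichons (Cnih2, Cnih3) carry AMPA receptors to the synapse and slow their closing, Shisa9 shapes their desensitisation in granule cells, and Neto1 and Neto2 do similar work for kainate receptors.

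Total counts per library ran from 8081824 to 11331337, so that 3 counts equalled 0.265 to 0.371 CPM, which is a count over its library's total, scaled to 1000000. The targeted gene matched the labels, with Fst at 3.57, 4.50 and 3.54 CPM in WT, 0.203 to 0.428 in KO, 0 to 0.0974 in the GFP vector group and 166 to 204 in the Fst vector group. The titles and descriptions disagree on sex for 4 libraries, and Xist and Ddx3y followed the titles in all 12. Ribosomal RNA took 0.575% to 0.679% of counts in 5 libraries (WT F1, KO M2, GFP vector M2, Fst vector M2 and Fst vector F) and 0.00919% to 0.0211% in the other 7. Markers of mature granule cells, the tissue's main neurons, summed to 1604 to 1688 CPM in WT and 1596 to 1725 in KO, and all 7 of them had counts in every library. Within this list Calb1 was lower in KO without overlap (204 to 219 CPM, beside 232 to 243 in WT). Plk5 was higher without overlap (152 to 175 CPM, beside 130 to 148 in WT), and the others overlapped.

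Per kb of annotated exon, the set was led by the cornichon Cnih2 and the AMPA subunit Gria1. This length merges all annotated exons of a gene (6043 bases for Gria1, 15548 for Gria2) and is not that of 1 message. By CPM alone Gria2 (1388 ± 20.3) stood above Gria1 (1338 ± 14.8) in WT (SD, n = 3). Ranks and ratios per kb therefore depend on the annotation. In WT, Cnih2 stood at 323 ± 7.29 CPM per kb of annotated exon (SD, n = 3), Gria1 (the GluA1 subunit) at 221 ± 2.45 and Gria2 (GluA2, which makes the channel impermeable to calcium) at 89.2 ± 1.31. Next came 2 TARPs that did not differ beyond their spread, Cacng7 at 66.8 ± 0.971 and Cacng8, the TARP known for its hippocampal enrichment, at 66.2 ± 0.925, and then the kainate subunit Grik5 at 62.3 ± 1.80. Grm2 at 46.2 ± 1.43 and Grin1, the obligatory NMDA subunit, at 45.7 ± 2.81 also differed by less than their spread. Cnih3 followed at 39.2 ± 0.127, the ninth highest of the set. At the other end Grm8, a group III receptor, stood at 0.324 ± 0.0880 and Grin3b at 0.0719 ± 0.0517. Grm6, known as the receptor of retinal bipolar cells, had 0 counts in 11 libraries and 0.0954 CPM in GFP vector F, below the level of 3 counts. Grin3b and Grm6 did not pass the filter on low counts, which left 33 members tested in each table. Grin3b shares exon bases with Tmem259 (up to 233 CPM) and Grin1 with Grin1os (up to 33.4 CPM), and no source states whether counting used strand.

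**Figure D1:**
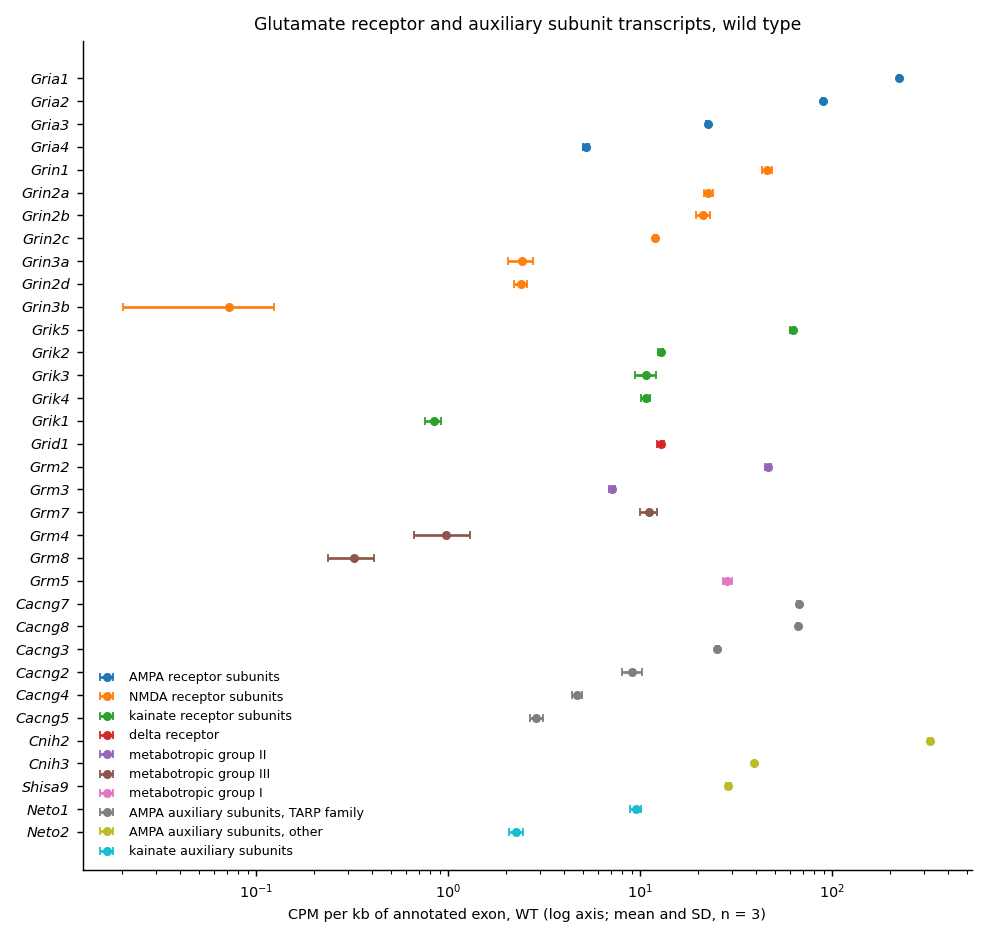
Mean level of each member in WT in CPM per kb of annotated exon on a log axis, with SD bars (n = 3) and colours for families. Cnih2 and Gria1 lie above all others at 323 and 221; Grm6, at 0, is not drawn.

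Loss of Fst moved no glutamate receptor or auxiliary message past the test. Between KO and WT, 0 of 33 members had an adjusted p under 0.05 (edgeR quasi-likelihood test, Benjamini-Hochberg over all genes), where 0.0268% of 14919 genes did. At an unadjusted p under 0.05 the count was also 0 of 33, against 5.96% of all genes, and DESeq2 gave 0 adjusted calls among members, against 0.011% of all genes. The log2 changes, KO minus WT, ran from -0.17 (Grm4) to 0.39 (Grm8) with a median of -0.01, and 19 of 33 were negative, against 50.3% of all genes. The smallest p belonged to the kainate subunit Grik3 (log2 change -0.15 ± 0.07, SE, adjusted p = 0.853). Groups did not overlap for Grm8 (higher in KO) and Grm3 (lower in KO), 2 of 33 members, against 11% of all genes.

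The KO intervals were narrow for most members. The 95% interval of the KO to WT ratio lay inside 1.2-fold in either direction for 21 of 33 members (38.5% of all genes tested). It lay inside 1.5-fold for 31 (74.3% of all genes tested), the exceptions being the low genes Grm4 and Grm8. For Gria1 the interval was 0.930 to 1.08, and for Grin1 it was 0.947 to 1.12. The summed level of the 4 AMPA subunits was 338 ± 3.99 CPM per kb in WT and 334 ± 12.4 in KO, and that of the 7 NMDA subunits 106 ± 1.10 and 107 ± 3.70 (SD, n = 3). Markers of newborn neurons differed between these groups, with a summed level of 60.5 to 63.1 CPM in KO and 73.9 to 78.6 in WT and no overlap. Of the 4 tested, 3 (Dcx, Igfbpl1 and Draxin) were lower without overlap. Eomes was also lower without overlap, but it was near the level of 3 counts and not tested (0.530 to 0.965 CPM in WT, 0 to 0.406 in KO). Of 6 astrocyte markers, 4 (Aldh1l1, Gja1, Gjb6 and Fgfr3) were also lower in KO without overlap, while the sums over all 6 overlapped. Single markers of other lists did not overlap either, in both directions, among them the interneuron genes Gad2 and Lhx6 (lower) and Npy (higher). The groups did not overlap for 11% of all genes tested. The part of these lists in the member values was not tested. Bulk samples cannot tell fewer cells of a type from less RNA per cell, in this or in any comparison below.

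With the Fst vector, 5 members stood lower than with the GFP vector in every library: the cornichon Cnih3, the group II receptor Grm2, the NMDA subunits Grin2a and Grin2b, and the TARP Cacng5, where 6.01% of all genes were lower without overlap. In the fit without pairing 0 of 33 members passed (adjusted p under 0.05), where 0.0798% of 15034 genes did. At an unadjusted p under 0.05, the count was 5 of 33, all lower in the Fst vector group, against 9.51% of all genes in either direction and 5.16% lower. Same-titled libraries of the vector groups deviated together in the data, and with the title as a block Cnih3 and Grm2 fell, 2 of 33, against 0.938% of all genes. DESeq2 without the block called 4 members (Cnih3, Grm2, Grin2a, Cacng5), against 1.63% of all genes. Over all 33, 21 log2 changes were negative, against 49% of all genes, and the median was -0.11, against 0.01 for all genes. Groups did not overlap for 7 of 33, these 5 and the TARPs Cacng3 and Cacng4, which were higher, against 16.5% of all genes (10.5% higher).

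Cnih3 encodes a cornichon homologue, a small membrane protein that binds AMPA receptors, aids their export and slows their deactivation. Its gene lies at chr1:181352628-181460641 (GRCm38, plus strand) and shares no exon bases with another gene. With the GFP vector Cnih3 stood at 139, 115 and 158 CPM, and with the Fst vector at 55.3, 29.9 and 29.4 CPM. All Fst vector libraries were below all others of the series, and the highest of them, M1, was still under the lowest GFP vector library. The log2 change, Fst vector minus GFP vector, was -1.88 ± 0.27 (SE), a ratio of 0.272 with a 95% interval of 0.177 to 0.418, at adjusted p = 0.102 by edgeR. With the block edgeR gave adjusted p = 0.0118. In the other table Cnih3 stood at 108, 108 and 108 CPM in WT and 118, 98.8 and 90.6 in KO, groups that overlapped (log2 change -0.06 ± 0.07, SE, adjusted p = 0.968 by edgeR). The ratio of mean CPM was 0.257 among vector libraries high in ribosomal RNA (2 Fst vector, 1 GFP vector) and 0.372 among the low ones (1 and 2). It was 0.335 in libraries titled male (2 and 2) and 0.187 in those titled female (1 and 1). Each side of these ratios is thus only 1 or 2 libraries.

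Its close relative Cnih2, which has the same role, was far more abundant. Cnih2 stood at 543, 355 and 371 CPM with the GFP vector and 391, 265 and 271 with the Fst vector, and the groups overlapped through library M1 of the Fst vector group. The log2 change was -0.49 ± 0.22 (SE, edgeR adjusted p = 0.537), with an interval of the ratio of 0.503 to 1.01. Without GFP vector M1 it was -0.26. With the block edgeR gave Cnih2 an adjusted p of 0.0765 and a ratio interval of 0.610 to 0.836. It stood at 444, 451 and 432 CPM in WT and at 423, 402 and 453 CPM in KO, again with overlap (log2 change -0.04 ± 0.06, SE, edgeR adjusted p = 0.973). Cnih2 shares exon bases with Yif1a (up to 10.5 CPM). The ratio of Cnih3 to Cnih2, in CPM per kb, describes the balance of the pair: it was 0.121 ± 0.00314 in WT, 0.120 ± 0.0199 in KO, 0.167 ± 0.0425 with the GFP vector and 0.0602 ± 0.00886 with the Fst vector (SD, n = 3). By library it was 0.127, 0.162 and 0.212 with the GFP vector and 0.0704, 0.0561 and 0.0541 with the Fst vector, which did not overlap. So within the pair Cnih3 took a smaller share in each Fst vector library than in any GFP vector library.

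Grm2 encodes mGlu2, a presynaptic group II receptor found on granule cell mossy fibres, where it lowers glutamate release. Its gene lies at chr9:106643095-106656082 (GRCm38, minus strand). Grm2 stood at 290.0, 269.6 and 345 CPM with the GFP vector and 162, 141 and 188 with the Fst vector. The lowest GFP vector library was well above the highest Fst vector library. The log2 change was -0.92 ± 0.15 (SE), a ratio of 0.530 with an interval of 0.416 to 0.676, at edgeR adjusted p = 0.109, and 0.0111 with the block. In WT it stood at 219, 233 and 226 CPM and in KO at 248, 215 and 258, which overlapped (log2 change 0.11 ± 0.06, SE, edgeR adjusted p = 0.929). The ratio of mean CPM was 0.611 and 0.511 in vector libraries high and low in ribosomal RNA, and 0.543 and 0.546 by title in males and females. As for Cnih3, each side of these ratios is 1 or 2 libraries.

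Grm3, the other group II receptor, which glia also express, stood at 16.5, 16.4 and 14.7 CPM with the GFP vector and 21.7, 17.4 and 15.6 with the Fst vector. These groups overlapped (log2 change 0.17 ± 0.17, SE, edgeR adjusted p = 0.806). Grm2 over Grm3, in CPM per kb, was 12 ± 2.35 with the GFP vector and 5.74 ± 1.55 with the Fst vector, beside 6.47 ± 0.216 in WT and 7.46 ± 0.436 in KO (SD, n = 3). The summed level of group II was mostly that of Grm2, at 66.8 ± 7.68 CPM per kb with the GFP vector and 39.5 ± 4.56 with the Fst vector.

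The upstream sequences of Cnih3, of its paralogue Cnih2 and of Grm2 are shown because Cnih3 and Grm2 carried the differences between the vector groups. Each is the 250 bases before the RefSeq start (GRCm38.p6), written 5′ to 3′ on the gene's strand, with capitals for matches to the motifs searched. RefSeq promoters were at hand for 23 of the 35 members.
Cnih3, chr1:181352378-181352627, plus strand: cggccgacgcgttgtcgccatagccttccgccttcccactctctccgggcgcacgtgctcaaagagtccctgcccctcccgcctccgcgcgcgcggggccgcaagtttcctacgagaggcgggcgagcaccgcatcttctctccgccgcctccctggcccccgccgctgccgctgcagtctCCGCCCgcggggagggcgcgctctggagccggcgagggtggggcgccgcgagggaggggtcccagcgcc
Cnih2, chr19:5098522-5098771, minus strand: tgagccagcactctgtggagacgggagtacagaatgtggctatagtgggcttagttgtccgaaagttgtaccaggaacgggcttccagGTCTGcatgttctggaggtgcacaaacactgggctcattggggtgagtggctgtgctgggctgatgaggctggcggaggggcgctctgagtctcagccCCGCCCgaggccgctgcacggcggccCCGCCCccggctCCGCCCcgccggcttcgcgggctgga
Grm2, chr9:106656110-106656359, minus strand: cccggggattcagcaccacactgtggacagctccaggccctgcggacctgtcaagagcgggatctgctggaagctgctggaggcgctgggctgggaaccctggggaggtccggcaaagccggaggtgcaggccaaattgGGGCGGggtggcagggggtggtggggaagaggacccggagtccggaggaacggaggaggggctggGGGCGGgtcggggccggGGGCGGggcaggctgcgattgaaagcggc
Searched on both strands were GGGCGG (GC box), CAGAC (the SMAD-binding box), its paired form GTCTAGAC, and TGACGTCA (the cAMP response element). SMADs are the transcription factors that activin receptors activate. Cnih3 held 1 GC box, Grm2 held 3, and Cnih2 held 3 with 1 SMAD-binding box in the form GTCTG. Of 32851 RefSeq promoters of this length, 32.7% held a GC box, 42.2% the SMAD-binding box, 0.167% the paired form and 1.55% the cAMP response element. Neither the paired form nor the cAMP response element was in these letters for any of the 23 members.

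**Figure D2:**
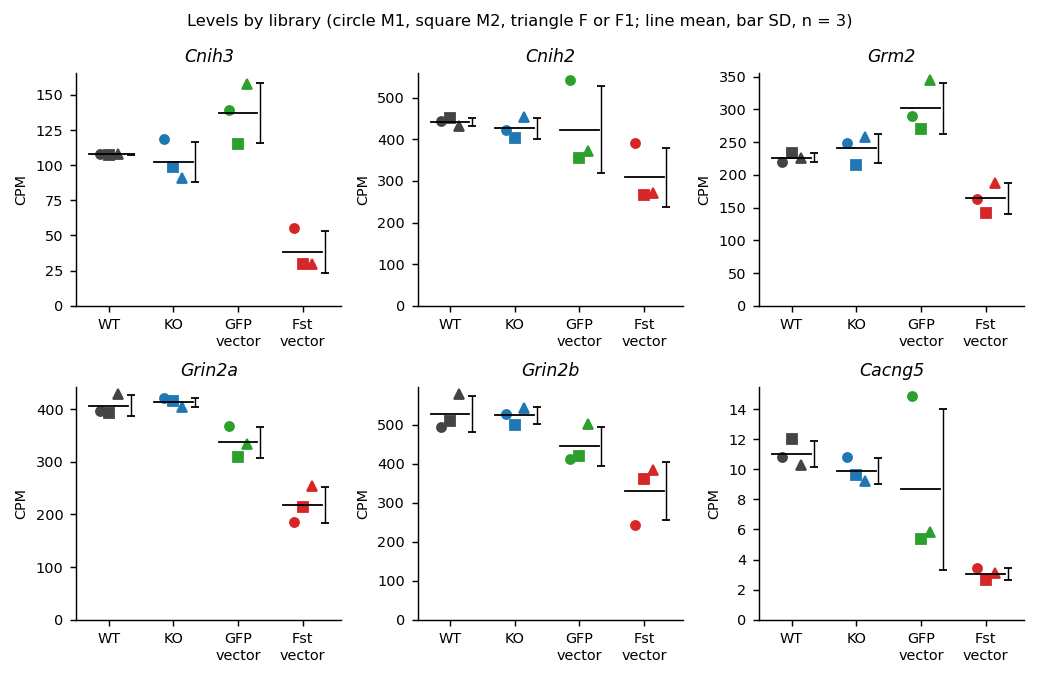
CPM in each library (points; circle M1, square M2, triangle F1 or F), with the mean (line) and SD (bar, n = 3), for 6 members. With the Fst vector Cnih3 reaches at most 55.3 CPM, below the lowest GFP vector library at 115, while Cnih2 overlaps.

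Among the NMDA receptor genes, both abundant GluN2 subunits stood lower with the Fst vector. Grin2a encodes GluN2A, the subunit typical of mature synapses, with fast deactivation. It stood at 368, 309 and 334 CPM with the GFP vector and 185, 213 and 254 with the Fst vector, without overlap. The log2 change was -0.67 ± 0.15 (SE, ratio interval 0.498 to 0.793, edgeR adjusted p = 0.185, 0.0738 with the block and 0.00742 by DESeq2). WT stood at 397, 392 and 429 CPM and KO at 420.5, 414 and 404, which overlapped (log2 change 0.04 ± 0.06, SE, edgeR adjusted p = 0.970). Grin2b encodes GluN2B, which closes slowly and is typical of young synapses. Grin2b stood at 412, 419 and 500.2 CPM with the GFP vector and 244, 360.2 and 383 with the Fst vector, where M1 was the lowest. The log2 change was -0.47 ± 0.18 (SE, ratio interval 0.544 to 0.957, edgeR adjusted p = 0.450, 0.137 with the block). Without Fst vector M1 it was -0.30. WT at 493, 510.0 and 579 CPM and KO at 528, 499.6 and 542 overlapped (log2 change 0.01 ± 0.06, SE, edgeR adjusted p = 0.997). By ribosomal RNA share the ratio of mean CPM, again with 1 or 2 libraries a side, was 0.756 (high ribosomal RNA) and 0.528 (low) for Grin2a. For Grin2b it was 0.886 and 0.534.

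The balance of the GluN2 pair overlapped between groups. Grin2a over Grin2b, in CPM per kb, was 1.06 ± 0.160 with the GFP vector and 0.931 ± 0.118 with the Fst vector, and 1.07 ± 0.0442 in WT and 1.09 ± 0.0585 in KO (SD, n = 3). Grin1, which every NMDA receptor contains, stood at 542, 452 and 401 CPM with the GFP vector and 444, 388 and 399 with the Fst vector, and at 470.4, 444 and 416 in WT and 437, 441 and 472 in KO. Both pairs of groups overlapped, with log2 changes of -0.22 ± 0.15 (edgeR adjusted p = 0.716) and 0.04 ± 0.06 (SE, adjusted p = 0.973). The other NMDA subunits tested, Grin2c, Grin2d and Grin3a, had vector log2 changes of 0.02, 0.19 and 0.03, each with overlap. The sum of the 7 subunits was 99.3 ± 8.46 CPM per kb with the GFP vector and 83.3 ± 0.403 with the Fst vector (SD, n = 3).

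The AMPA receptor subunits themselves did not pass any test. Gria1 stood at 1266, 1002 and 885 CPM with the GFP vector and 987, 1064 and 833 with the Fst vector, and at 1337, 1353 and 1323 in WT and 1339.9, 1333 and 1296 in KO. The vector groups overlapped widely and WT and KO nearly coincided, with log2 changes of -0.17 ± 0.17 (edgeR adjusted p = 0.807) and 0.00128 ± 0.05 (SE, adjusted p = 0.999). All 4 subunits had small negative vector changes, from -0.17 (Gria1) to -0.02 (Gria3). The interval of the Gria2 ratio, 0.719 to 1.23, leaves room for a change of either sign.

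Among the TARPs, Cacng5 stood lower with the Fst vector than with the GFP vector, and Cacng3 and Cacng4 stood higher. Cacng5 encodes γ-5, a type II TARP that acts on AMPA receptor gating with little effect on trafficking. It stood at 14.8, 5.36 and 5.82 CPM with the GFP vector and 3.44, 2.63 and 3.10 with the Fst vector. The GFP vector value of M1 was far above M2 and F, and the groups did not overlap. The log2 change was -1.53 ± 0.42 (SE, ratio interval 0.179 to 0.673, edgeR adjusted p = 0.295, 0.0889 with the block, 0.0393 by DESeq2). In WT it stood at 10.8, 12 and 10.3 CPM and in KO at 10.8, 9.65 and 9.21 (log2 change -0.14 ± 0.15, SE, edgeR adjusted p = 0.953). Without GFP vector M1 the log2 change of Cacng5 was -0.90.

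Cacng7, the other type II TARP and the most abundant of the family per length, stood at 169.6, 132 and 118 CPM with the GFP vector and 163, 159.6 and 117 with the Fst vector, and at 165, 164 and 160.4 in WT and 159, 154 and 171 in KO. Each pair of groups overlapped (log2 changes 0.03 ± 0.18, edgeR adjusted p = 0.975, and 0.00105 ± 0.06, SE, adjusted p = 0.999). Cacng3 (γ-3), a type I TARP, stood at 74.2, 66.8 and 51.2 CPM with the GFP vector and 77.5, 80.6 and 79.2 with the Fst vector, a log2 change of 0.27 ± 0.15 (SE, edgeR adjusted p = 0.639). Cacng4 (γ-4) stood at 15.7, 13.3 and 13.6 CPM with the GFP vector and 18, 19.2 and 16.2 with the Fst vector, a log2 change of 0.29 ± 0.16 (adjusted p = 0.643). Both were higher without overlap and neither passed the test. Cacng2 (stargazin) and Cacng8 overlapped, with log2 changes of -0.02 and -0.23. Shisa9 (CKAMP44) had a log2 change of -0.11 ± 0.22, with overlap.

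Kainate and delta receptor genes passed no test in either table. Grik5 encodes GluK5, a high-affinity kainate subunit. It stood at 382, 321 and 286 CPM with the GFP vector and 434, 317 and 307 with the Fst vector, and at 332, 319.7 and 314 in WT and 313, 297 and 316 in KO. Both pairs overlapped (log2 changes 0.06 ± 0.18, edgeR adjusted p = 0.947, and -0.05 ± 0.05, SE, adjusted p = 0.962). Grik4, the other high-affinity subunit, stood at 54.4, 77.5 and 115 CPM with the GFP vector, where F was high, and 49.6, 60.8 and 61.3 with the Fst vector (log2 change -0.56 ± 0.25, edgeR adjusted p = 0.530). With the block edgeR gave Grik4 an adjusted p of 0.191 and a ratio interval of 0.548 to 0.903. Grik1, Grik2 and Grik3 had vector log2 changes of 0.26, 0.21 and -0.27, each with overlap. Neto1, the more abundant kainate auxiliary subunit, stood at 62.6, 71.2 and 66.6 CPM with the GFP vector and 41.6, 72.8 and 73.0 with the Fst vector, and at 84.3, 74.0 and 79.3 in WT and 78.6, 97.1 and 70.9 in KO. It overlapped throughout (log2 changes -0.14 ± 0.20, edgeR adjusted p = 0.875, and 0.07 ± 0.09, SE, adjusted p = 0.968), and Neto2 had 0.24 ± 0.24 in the vector comparison. Grid1 encodes GluD1, a synaptic organiser that binds cerebellins. It stood at 67.2, 48.7 and 47.9 CPM with the GFP vector and 54.4, 64.0 and 55.6 with the Fst vector, and at 80.0, 74.7 and 74.2 in WT and 68.3, 73.3 and 78.7 in KO. Its groups overlapped in both tables (log2 changes 0.05 ± 0.16, edgeR adjusted p = 0.949, and -0.04 ± 0.07, SE, adjusted p = 0.976).

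Outside group II, the metabotropic receptors among the members passed no test. Grm5 encodes mGlu5, the postsynaptic group I receptor. It stood at 224, 317 and 274 CPM with the GFP vector and 175, 255 and 315 with the Fst vector, and at 309, 278 and 287 in WT and 284, 302 and 287 in KO. Its groups overlapped (log2 changes -0.17 ± 0.21, edgeR adjusted p = 0.852, and 0.02 ± 0.06, SE, adjusted p = 0.989). Grm7, the group III receptor of presynaptic active zones, stood at 52.2, 75.3 and 94.6 CPM with the GFP vector and 57.2, 76.3 and 78.4 with the Fst vector, and at 63.8, 59.9 and 72.8 in WT and 68.5, 65.1 and 67.9 in KO. These too overlapped (log2 changes -0.11 ± 0.21, edgeR adjusted p = 0.913, and 0.05 ± 0.08, SE, adjusted p = 0.972). Grm8 stood at 2.97, 7.50 and 10.6 CPM with the GFP vector and 3.34, 4.96 and 4.54 with the Fst vector, and Grm4 had a log2 change of -0.11 ± 0.32.

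**Figure D3:**
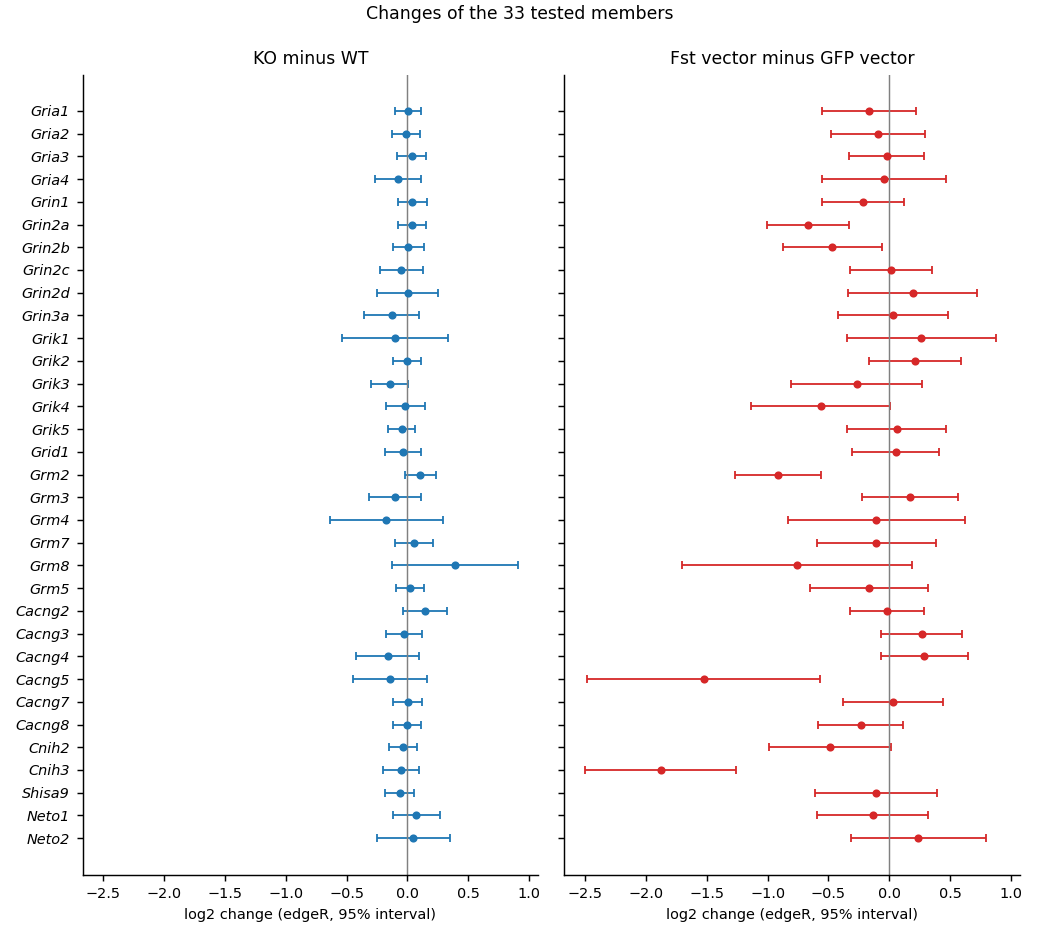
log2 change of each of the 33 tested members with its 95% interval (edgeR), KO minus WT on the left and Fst vector minus GFP vector on the right, on one scale. The left intervals cluster around 0; on the right those of Cnih3, Grm2, Grin2a, Grin2b and Cacng5 lie below 0 before adjustment.

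Whether the 2 comparisons differed for a member was tested as the vector effect minus the KO effect, with the 12 libraries together in 1 fit. The 2 effects run opposite ways in Fst. Mean Fst was 186 CPM with the Fst vector against 0.0325 with the GFP vector. It was 0.282 in KO against 3.87 in WT. A member that followed Fst in both tables would also give a difference, so a pass does not by itself show unlike responses to Fst. Grm2 and Cnih3 passed, 2 of 33 members, against 0.281% of 15632 genes. The difference was -1.03 ± 0.17 on the log2 scale for Grm2 (SE, edgeR adjusted p = 0.0172) and -1.83 ± 0.31 for Cnih3 (adjusted p = 0.0306). Grin2a stood at -0.72 ± 0.16 (adjusted p = 0.0768). This fit shares 1 spread per gene over all 12 libraries, although the groups spread unequally. The median SD of log2(CPM + 0.5) over members was 0.07 in WT, 0.09 in KO, 0.26 with the GFP vector and 0.25 with the Fst vector. In the vector table alone edgeR without the block gave adjusted p = 0.109 for Grm2 and 0.102 for Cnih3, neither a pass. The joint fit differs from that one in the contrast, the shared spread, the number of libraries and the genes tested. Which of these brought the passes was not tested. The calls depended on single libraries: leaving out WT M1, WT M2, WT F1, KO M1 or KO F1 ended both, and leaving out KO M2, GFP vector F or Fst vector M2 ended that of Cnih3 alone. The adjusted p without 1 library ran from 0.00723 to 0.0860 for Grm2 and from 1.18e-04 to 0.129 for Cnih3, while the differences kept their sign. The vector contrast and the knockout contrast differ in the direction of Fst, in vector, table and possibly genotype, which cannot be told apart.

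The members varied far more between libraries of the vector groups than of WT or KO. The median SD of log2(CPM + 0.5) over 33 members was 0.07 in WT and 0.09 in KO, under the medians of all genes (0.11 and 0.12). It was 0.26 with the GFP vector and 0.25 with the Fst vector, over the medians of all genes (0.19 and 0.20). For 24 of 33 members both vector groups had a larger SD than both WT and KO, a count that was not made over all genes. In the vector comparison the 95% interval lay inside 1.5-fold for 12 of 33 members (43.8% of all genes tested). It lay inside 2-fold for 27 members (73.7% of all genes tested).

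**Figure D4:**
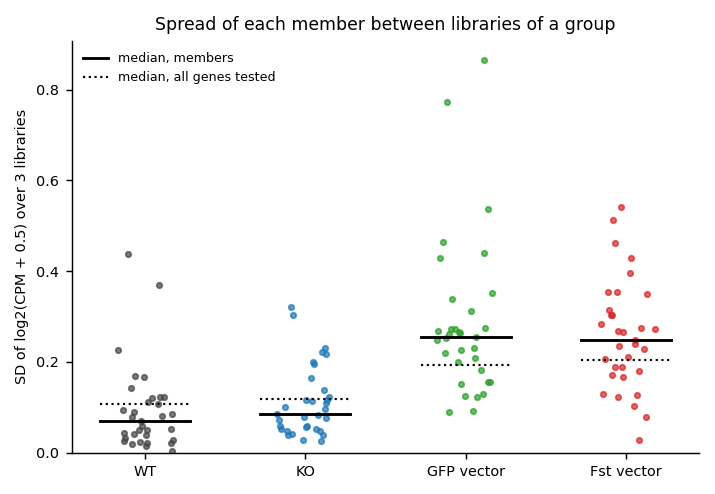
SD of log2(CPM + 0.5) over the 3 libraries of each group, 1 point per member (33), with the median over members (solid) and over all genes (dotted). The member medians are 0.07 in WT, 0.09 in KO, 0.26 with the GFP vector and 0.25 with the Fst vector.

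Within the GFP vector group 1 library stood apart. On the log2 scale GFP vector F lay farthest from the KO mean for 18 of 33 members (46.8% of all genes), and M1 nearest for 17 (38.5% of all genes). Of the Fst vector libraries, M1 lay farthest from the KO mean for 14 of 33 members (54.9% of all genes). In GFP vector F, Shisa9 was low and Grik4 and Grm8 were high: Shisa9 stood at 138, 112 and 73.0 CPM over M1, M2 and F. The same library had the highest summed astrocyte markers (6 genes), which were 993, 2087 and 5605 CPM in the GFP vector group and 1096 to 1572 in the Fst vector group. Most of that sum was Gfap, at 566, 1555 and 4864 CPM over M1, M2 and F. Gja1 was lowest in F (149, 162 and 142 CPM), and Gja1 and Gjb6 were higher with the Fst vector without overlap. The sum over 11 activity-induced genes was also highest in GFP vector F, at 298, 345 and 741 CPM, beside 351, 310.0 and 545 with the Fst vector. Bdnf (73.4, 125 and 208 CPM) and Nptx2 (24.9, 70.4 and 223 CPM) were highest in GFP vector F, and Junb, Egr4, Npas4 and Nr4a1 were lowest there. Fst vector F showed the same order within its group. There Bdnf (75.6, 76.1 and 192 CPM) and Nptx2 (26.7, 16.5 and 131 CPM) were highest, and Junb, Egr4, Npas4 and Nr4a1 lowest. Without GFP vector F the log2 change was -1.77 for Cnih3, -0.81 for Grm2 and -0.68 for Grin2a.

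Markers of other cells also differed between the vector groups. Oligodendrocyte markers summed to 1127 to 1306 CPM with the GFP vector and 1504 to 1799.7 with the Fst vector, and 5 of 6 were higher without overlap. CA1 pyramidal markers summed to 69.0 to 77.7 and 54.7 to 63.7 CPM, lower without overlap through 1 of 5 genes, Fibcd1. Mature granule cell markers (1254 to 1872 and 1532 to 1802 CPM), CA3 and CA2 markers (119 to 163 and 118 to 159), mossy cell markers (73.6 to 121 and 89.9 to 139) and interneuron markers (406 to 662 and 543 to 598) overlapped in sum. Within the granule cell list Dsp was lower and Plk5 and Trpc6 were higher without overlap. The sums also overlapped for newborn neurons (55.8 to 132 and 61.5 to 109), microglia (225 to 299.9 and 192 to 248), oligodendrocyte precursors (74.4 to 88.3 and 81.1 to 104), endothelium (96.0 to 153 and 139 to 147) and choroid plexus (12.8 to 24.1 and 7.75 to 15.5). No marker of any list was at 0 in all libraries. The part of these cells in the member values was not tested.

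**Figure D5:**
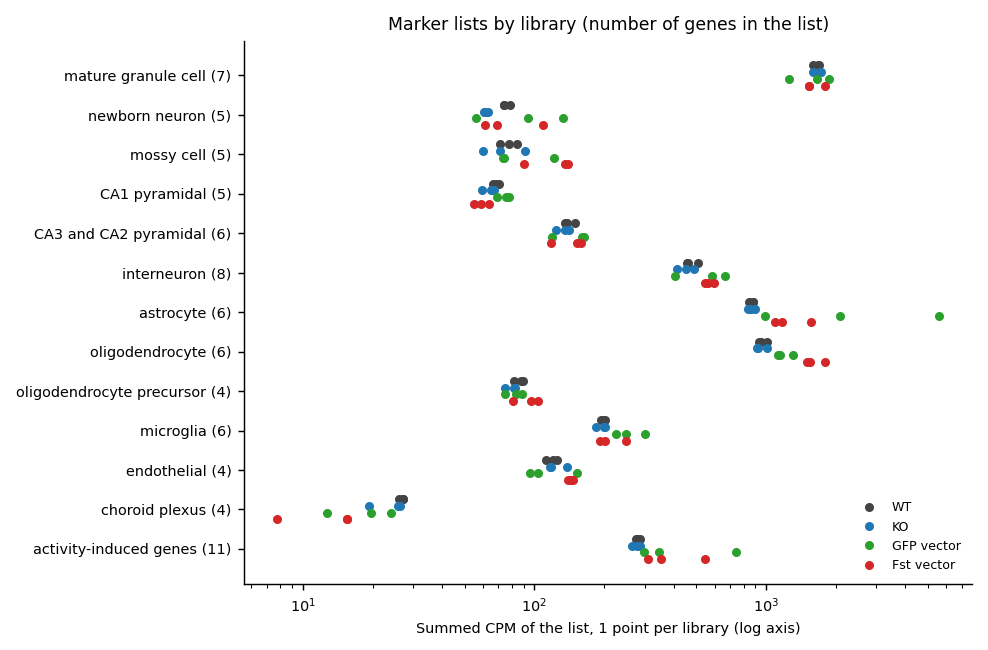
Summed CPM of each marker list (rows, number of genes in brackets), 1 point per library on a log axis, coloured by group. Oligodendrocyte sums with the Fst vector, 1504 to 1800 CPM, lie above those with the GFP vector, while astrocyte sums, mostly Gfap, spread widest with the GFP vector.

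A wider set of 46 genes held 0 adjusted calls in either table by edgeR or DESeq2. It covers glutamate transport, receptor assembly, synaptic organisers, scaffolds and 7 receptor or auxiliary genes outside the members. Between KO and WT, 43 were tested and 4 had an unadjusted p under 0.05 (3 higher, 1 lower), against 5.96% of all genes. Among them were C1ql2, secreted by granule cells and a ligand of kainate receptors (463, 459 and 453 CPM in WT, 489, 454 and 568 in KO, log2 change 0.16 ± 0.07, SE, adjusted p = 0.786 by edgeR), and Elfn1, which recruits presynaptic group III receptors (12.3, 9.35 and 10.8 CPM in WT, 6.87, 9.95 and 7.39 in KO, -0.40 ± 0.17, SE, adjusted p = 0.786). The others were Nptxr, a pentraxin that clusters AMPA receptors (log2 change 0.13 ± 0.06, SE, adjusted p = 0.806), and the kinase Camk2a (0.10 ± 0.05, SE, adjusted p = 0.837). All 4 overlapped between groups.

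In the vector table all 46 were tested, and 7 had an unadjusted p under 0.05 (1 higher, 6 lower), against 9.51% of all genes. Groups did not overlap for 13.0% of the 46, against 16.5% of all genes. Dlg3, a scaffold of NMDA receptors also called SAP102, stood at 435, 414 and 471 CPM with the GFP vector and 336, 316 and 358 with the Fst vector, without overlap (log2 change -0.42 ± 0.12, SE, adjusted p = 0.325 by edgeR). Frrs1l, which assists AMPA receptor assembly in the endoplasmic reticulum, stood at 379.7, 363 and 403 CPM with the GFP vector and 226, 315 and 295 with the Fst vector, also without overlap (-0.49 ± 0.15, SE, adjusted p = 0.332). Camk2a, the kinase of synaptic plasticity, stood at 4462, 3398 and 2911 CPM with the GFP vector and 2613, 2747 and 2702 with the Fst vector, where GFP vector M1 was high (-0.46 ± 0.17, SE, adjusted p = 0.447). Grip1, a scaffold that binds GluA2 and GluA3, had a log2 change of -0.52 ± 0.20, SE, adjusted p = 0.464, with overlap. None of these passed with the block. The scaffold and kinase list had 7 of 8 negative changes with a median of -0.25, beside 49% negative and a median of 0.01 over all genes. Changes were negative for 5 of 7 receptor or auxiliary genes outside the members, 5 of 9 assembly genes and 9 of 13 synaptic organisers. The transport list went the other way, with 3 of 9 negative and a median of 0.07.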

How the data were processed

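Bulk total RNA of the dentate gyrus was measured in 12 libraries, 3 in each of 4 groups. The authors deposited raw counts per Ensembl gene in 2 tables, one for WT and KO and one for the vector groups. The build is GRCm38 per the submitters' processing notes, and no source used here names the aligner, counter, annotation or strand setting. Lines that name no gene (6 and 12) held no whole-number counts and were left out. Symbols and exon lengths came from GENCODE M21 (52489 of 52636 IDs matched) and upstream sequences from RefSeq.

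Groups were taken from the labels. Counts were tested with edgeR 4.0.16 in R 4.3.3 (TMM scaling, default filterByExpr, robust quasi-likelihood), fitted on all genes of a table with Benjamini-Hochberg adjustment over all genes tested and a threshold of 0.05. SE is the log2 change over the square root of F. CPM uses library totals. The test was checked on simulated data. Alternatives were DESeq2 1.42.0, scaling by totals, no filter, a block by title, sex by title, ribosomal RNA share, all 12 libraries and leaving out each library. Replicates of a group differed by 2.39 to 31.5 in chi-square per degree of freedom, so none was counted as a duplicate. Same-titled vector libraries had correlated deviations from their group means (0.337 for M1, 0.144 for M2, 0.397 for F), all above the minimum of 0.1, so the titles were taken to pair them. This comes from the data, not the labels, and GFP vector M1 with Fst vector M2 also gave 0.126. The members, lists and rules were chosen with earlier results of these data known. The rule for named genes gives every library's value and full statistics for members at unadjusted p under 0.05 or passing with the block. It does so too for the member of each family highest per kb of annotated exon. The 4 smallest p of the wider lists are named, and other members are given by range.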

Additional observations from a re-analysis of the deposited data

Results flagged for a closer look

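Grm2 and Cnih3 differed between the vector comparison and the knockout comparison in a test of the difference itself. Fst was raised in the first and lost in the second, so a difference does not by itself show unlike responses to Fst. For Grm2, the log2 change with the Fst vector less that with the knockout was -1.03 (edgeR adjusted p = 0.0172), from -0.92 ± 0.15 (SE) in the vector table and 0.11 ± 0.06 in the other. For Cnih3 it was -1.83 (adjusted p = 0.0306), from -1.88 ± 0.27 and -0.06 ± 0.07. Each direction was shown by all 3 Fst vector libraries, every one below every GFP vector library, while WT and KO overlapped. The test of the difference shares 1 spread per gene over all 12 libraries, although members spread more in the vector groups than in WT and KO.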

How the results depend on the processing

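In the vector comparison the log2 changes of Cnih3, Grm2, Grin2a, Grin2b and Cacng5 stayed negative in all 14 alternatives, while the calls moved. Members called, 0 by edgeR with no covariate, became 4 by DESeq2, 4 with no filter on low counts, 2 with the replicate block, 2 with sex by title as a term, 4 with all 12 libraries in 1 fit and 1 with ribosomal RNA share as a term (Cnih3). Without 1 library the count was 0 to 1, the 1 being Cnih3 without Fst vector M1. Over all genes, 12 calls became 247 by DESeq2, 230 with no filter, 141 with the replicate block, 132 with sex, 412 with 12 libraries, 7 with ribosomal RNA share, 27 in libraries titled male alone (chosen after seeing the data) and 1 to 29 without 1 library. The block changed no other call among members.

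Between KO and WT 0 members were called in each alternative. Over all genes 4 calls became 46 with no filter, 23 with the replicate block, 30 with sex, 1 with 12 libraries, 8 in libraries titled male alone and 2 to 17 without 1 library. These titles share only a sex letter and a number: same-titled deviations correlated by 0.0591 (M1), -0.11 (M2) and 0.101 (F1), where the minimum for pairing was 0.1. The difference of the effects held 2 called members, and 0 to 3 without 1 library (chosen after seeing the data). Without the filter the difference for Cnih3 had an adjusted p of 0.0852.

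Small changes of members that were not called crossed 0. KO minus WT was -0.011 for Grin2b, -0.017 for Cacng7 and -0.016 for Gria1 scaled by totals. Cacng7 stood at -0.000564 with the block and -0.000387 with sex. In libraries titled male it was 0.032 for Cnih3, -0.051 for Cacng7 and -0.037 for Grin1. Fst vector minus GFP vector in those was -0.00485 for Grid1 and 0.028 for Grm7. Without 1 library KO minus WT ranged over -0.040 to 0.087 (Grin2b), -0.17 to 0.023 (Cnih3), -0.046 to 0.037 (Cacng7), -0.086 to 0.00662 (Cnih2), -0.00441 to 0.012 (Gria1), -0.093 to 0.016 (Grid1), -0.062 to 0.17 (Neto1), -0.020 to 0.063 (Grm5) and -0.012 to 0.15 (Grm7), and the vector change over -0.081 to 0.19 (Cacng7), -0.036 to 0.23 (Grid1), -0.26 to 0.080 (Neto1), -0.13 to 0.19 (Grik5), -0.37 to 0.026 (Grm5) and -0.30 to 0.11 (Grm7). The cause was not tested. Where omission leaves 2 libraries in a group, the pooled spread stands for both. Depth limits Grm4, Grm8, Grik1 and Cacng5, all under 15 CPM in every library, and leaves Grin3b and Grm6 untested.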

Other observations

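Several members stood at other levels in the vector table than in the WT and KO table. These are values across tables, vector and table cannot be told apart, and no test was made. The 4 AMPA subunits summed to 338 ± 3.99 CPM per kb in WT and 334 ± 12.4 in KO, beside 261 ± 40.1 with the GFP vector and 244 ± 21 with the Fst vector (SD, n = 3). Gria2 was at most 1088 CPM in the 6 vector libraries and at least 1241 in the 6 others. Grik3, a kainate subunit, stood at 77.6, 42.0 and 57.3 CPM with the GFP vector and 41.6, 47.8 and 61.6 with the Fst vector, beside 87.9, 91.4 and 109.6 in WT and 82.1, 87.5 and 88.2 in KO. The kainate sum did not follow this, at 97.4 ± 1.38, 93.1 ± 1.12, 97.5 ± 5.09 and 99.2 ± 9.38 CPM per kb in WT, KO, GFP vector and Fst vector.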
